A study of Mus musculus with 6 samples.

Results

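The response of early-passage mouse embryonic fibroblasts (MEFs) to β-amyrin was read from 2 of the 6 RNA libraries of the study, the P1 β-amyrin library and the P1 vehicle library. MEFs are primary connective tissue cells grown out of mouse embryos. All cells were wild-type, and the passage number (P1 or P6) counts how often the culture was replated. P1 cells carried the label non-senescent and P6 cells the label senescent. The 6 libraries were vehicle, 20 µM α-amyrin and 20 µM β-amyrin at P1 and the same 3 treatments at P6, each treatment lasting 3 days. The labels name 1 library per condition and do not tell whether the cultures behind them were separate. Strain, embryo number and the origin of the P6 cells are also left unsaid there. Every difference described here therefore compares 2 libraries by size, with no p-value and no replicate check.

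Of 55487 genes in the count table, 11579 were treated as expressed. These reached 5 CPM (reads of the gene per 1000000 reads of the library) in 1 or both of the compared libraries. The P1 vehicle library held 26136738 counts and the P1 β-amyrin library 25077506. The other 4 libraries held 18798418 to 28752332, and mitochondrially encoded genes took 1.55% to 1.81% of counts in all 6. The label fibroblast was checked against a list of 23 fibroblast markers, of which 22 were expressed. Col1a1, a chain of type I collagen, had 391364 reads in P1 vehicle and 353901 in P1 β-amyrin.

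β-Amyrin is a plant triterpene of the oleanane type, and α-amyrin is its ursane-type isomer, which differs in the position of a methyl group. Primary MEF cultures are a mixture, because embryos also contain macrophages, blood vessel cells and mesothelium. Macrophages depend on the receptor Csf1r and on the transcription factor PU.1, encoded by Spi1, which binds purine-rich sites in many myeloid promoters. Cholesterol synthesis is set by SREBP2, a transcription factor held in the endoplasmic reticulum by sterols through Scap and Insig1, while LXR receptors sense oxysterols and drive sterol efflux genes.

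Both regulators are known by short DNA sites, and 3 promoters of genes discussed here show them. The sequences come from RefSeq (build GRCm38.p6), run 5′ to 3′ on the gene's strand from 250 bases before to 50 bases after the start, and carry the searched site in capitals. C1qc, a subunit of complement C1q, and Ctss, the lysosomal protease cathepsin S, are macrophage markers and hold a PU.1 site (GAGGAAGT or its reverse complement). Hmgcs1, the cytosolic HMG-CoA synthase, holds a sterol regulatory element (SRE, TCACNCCAC). They lie at chr4:136892865-136893164 (minus strand), chr3:95526536-95526835 (plus strand) and chr13:119690101-119690400 (plus strand).
C1qc: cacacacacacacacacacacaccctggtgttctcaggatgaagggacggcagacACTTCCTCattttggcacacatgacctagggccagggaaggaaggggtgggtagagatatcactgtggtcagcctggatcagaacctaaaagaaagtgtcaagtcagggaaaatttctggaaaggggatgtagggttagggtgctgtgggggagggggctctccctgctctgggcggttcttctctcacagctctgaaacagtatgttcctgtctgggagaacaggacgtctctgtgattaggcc
Ctss: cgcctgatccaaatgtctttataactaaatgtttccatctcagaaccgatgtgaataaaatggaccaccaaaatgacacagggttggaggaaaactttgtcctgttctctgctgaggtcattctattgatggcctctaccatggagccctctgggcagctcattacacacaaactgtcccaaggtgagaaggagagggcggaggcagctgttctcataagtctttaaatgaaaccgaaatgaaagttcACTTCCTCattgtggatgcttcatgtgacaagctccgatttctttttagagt
Hmgcs1: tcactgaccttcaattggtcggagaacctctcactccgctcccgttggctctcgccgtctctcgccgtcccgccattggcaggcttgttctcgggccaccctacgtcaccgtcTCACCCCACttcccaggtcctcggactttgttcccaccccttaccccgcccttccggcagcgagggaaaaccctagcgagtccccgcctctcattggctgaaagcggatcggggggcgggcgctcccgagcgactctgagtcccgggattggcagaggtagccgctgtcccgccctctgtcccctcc

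Most genes barely differed between the 2 libraries. The log2 ratio of β-amyrin over vehicle, from CPM scaled by TMM with a prior count of 2, had a median of 0.01. Its 5th percentile was -0.33 and its 95th percentile 0.28. Genes were called by size, at a ratio of at least 2-fold. By that rule 100 genes were lower with β-amyrin, 0.864% of the expressed genes, and 4 were higher, 0.0345%. At 1.5-fold there were 185 lower genes, 1.6%, and 50 higher genes, 0.432%. The sides were thus uneven at both sizes, whereas ratios of any size lay below 0 for 47.2% of genes and above 0 for 52.8%. For P1 α-amyrin over the same P1 vehicle library, 35 genes were at least 2-fold higher (0.301% of 11642) and 21 at least 2-fold lower (0.18%).

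The 100 lower genes were of modest level, from 5.18 to 136 CPM in P1 vehicle with a median of 10.4 CPM. Their log2 ratios ran from -5.49 to -1.01 with a median of -2.62. At least an 8-fold deficit was seen for 39 of them, 22 were between 4-fold and 8-fold lower and 39 between 2-fold and 4-fold. In 28 of the 100 the β-amyrin library had under 1 CPM. For 76 of the 100 the 95% interval that counting error alone allows lay wholly beyond 2-fold. Protein-coding genes made up 95 of the 100, processed pseudogenes 3 and antisense RNAs 2.

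**Figure D1:**
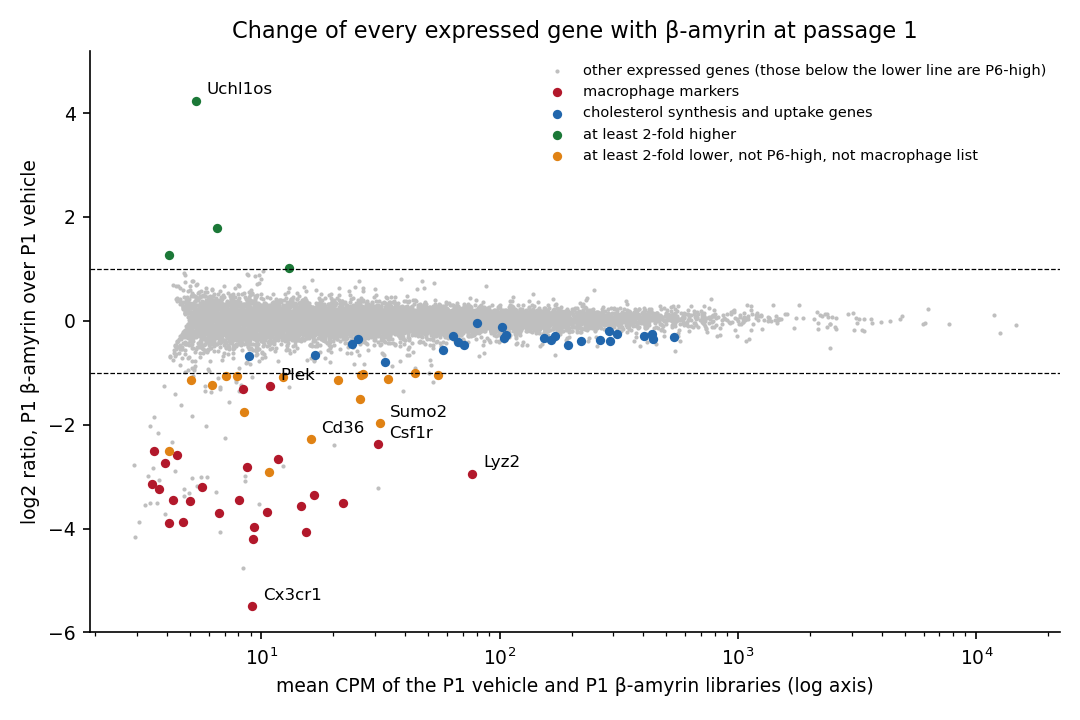
Log2 ratio of P1 β-amyrin over P1 vehicle (vertical axis) against mean CPM of both libraries (horizontal log axis) for 11579 expressed genes, 1 point per gene, with dashed lines at 2-fold. The macrophage markers lie at -5.49 to -1.26, the cholesterol genes lie in a narrow band just below 0, and Uchl1os stands alone at 4.24.

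The most strongly lowered genes were those of macrophages. Cx3cr1, the fractalkine receptor (chromosome 9, 119901616 to 120069879, mm10, an annotated span that overlaps several other genes), had 469 reads in P1 vehicle and 8 in P1 β-amyrin, or 18.0 and 0.322 CPM. That is a log2 ratio of -5.49 with a 95% counting interval of -7.03 to -4.82. In P1 α-amyrin it stood at 15.3 CPM, so only the β-amyrin library of that passage was low. The next largest deficits were those of Fcrls, a receptor-like surface protein (16.2 to 0.523 CPM, log2 ratio -4.76), and C1qa, a C1q subunit (17.6 to 0.885 CPM, log2 ratio -4.19). The other 2 C1q subunits moved alike, with log2 ratios of -4.07 for C1qb and -3.97 for C1qc.

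Further genes among the 15 largest deficits encode phagocyte receptors, enzymes and cytoskeletal proteins. Msr1, the class A scavenger receptor, had a log2 ratio of -4.07, Cybb, the NADPH oxidase subunit, -3.90, and the Fc receptor Fcgr3 -3.88. Hpgds, the hematopoietic prostaglandin D synthase, stood at -3.87 and Ms4a6d at -3.72. Adgre1, which encodes the F4/80 antigen, had 19.6 CPM in P1 vehicle, 20.9 in P1 α-amyrin and 1.45 in P1 β-amyrin, a log2 ratio of -3.69. Coro1a, an actin-binding protein of leukocytes, was also at -3.69, the lysosomal Laptm5 at -3.57, Arhgap30 at -3.54 and Wdfy4 at -4.16.

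Abundant macrophage genes gave the same picture with more reads. Lyz2, the macrophage lysozyme (chromosome 10, 117277331 to 117282321), had 3546 reads in P1 vehicle and 438 in P1 β-amyrin. Its levels at P1 were 136 CPM in vehicle, 85.6 in α-amyrin and 17.6 in β-amyrin, and its log2 ratio was -2.94 with a counting interval of -3.10 to -2.81. Csf1r, the receptor for macrophage colony-stimulating factor, had 51.9 CPM in vehicle, 51.2 in α-amyrin and 9.93 in β-amyrin, a log2 ratio of -2.38. Spi1, the gene of PU.1, had 7.82, 8.09 and 0.643 CPM in the same order, a log2 ratio of -3.45. In each of these 3 genes the P1 β-amyrin library was lowest of the 3 and the α-amyrin library lay nearer to vehicle.

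Over the whole list of 40 macrophage markers, the summed level was 579.8 CPM in P1 vehicle, 505.3 in P1 α-amyrin and 72.5 in P1 β-amyrin. The sum was 8.0-fold lower in β-amyrin than in vehicle and 6.97-fold lower than in α-amyrin. Earlier results of these data had already shown macrophage markers low in the P1 β-amyrin library, so the direction was known beforehand. All 26 members that reached 5 CPM were at least 2-fold lower, where 0.864% of all expressed genes were. Their median log2 ratio was -3.40, against a median of 0.01 over all expressed genes. Each of these 26 passed the minimum through the vehicle library, and only 3 of them also reached 5 CPM with β-amyrin. The smallest deficits were those of Plek (15.3 to 6.35 CPM, log2 ratio -1.26), a platelet and leukocyte pleckstrin, and Cd68, a lysosomal glycoprotein (12.0 to 4.78 CPM, log2 ratio -1.31). The remaining 14 members stayed under the minimum, of which 12 had a ratio below 0. They included Itgam (118 reads and 6 reads) and Fcgr1 (126 and 7), while F13a1 had 11 and 12 reads, and Timd4 had none in either library. In bulk RNA, fewer macrophages and less of these transcripts per macrophage cannot be told apart.

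**Figure D2:**
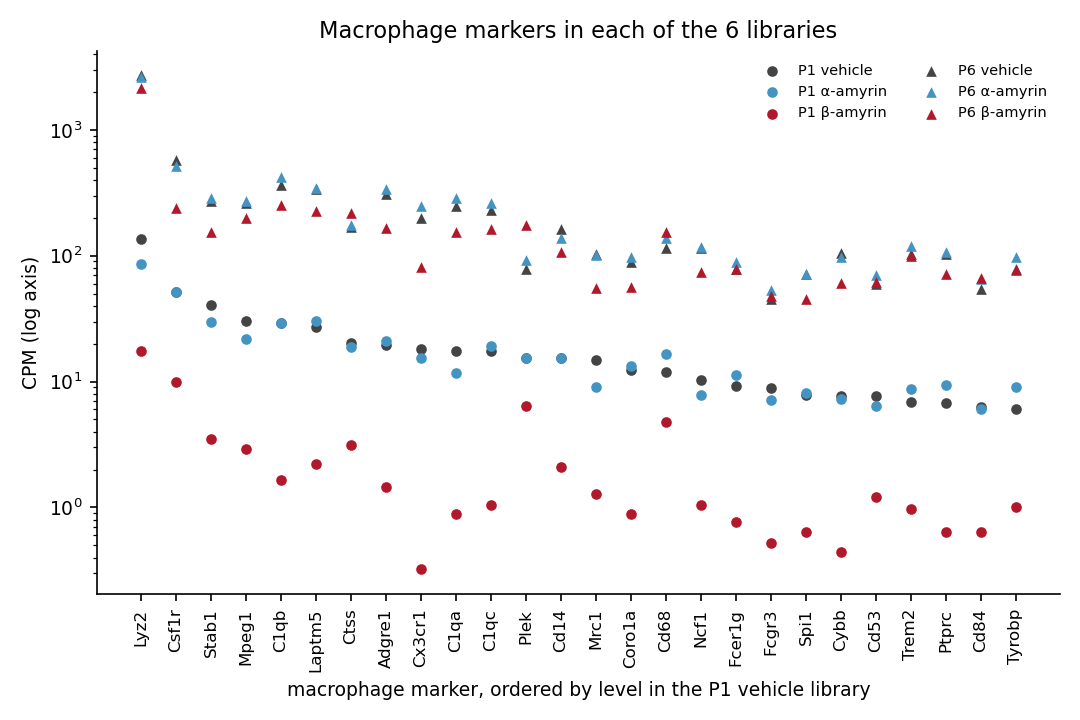
CPM (log axis) of the 26 macrophage markers that reached 5 CPM, 1 column of points per gene, with circles for the 3 P1 libraries and triangles for the 3 P6 libraries. The P1 β-amyrin library (red circles) is lowest for all 26, and the P6 libraries lie above the P1 libraries for all 26.

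Lower genes outside that list included the complement receptors C5ar1 (18.1 to 1.49 CPM, log2 ratio -3.53) and C3ar1 (21.6 to 3.06 CPM, log2 ratio -2.79) and the chemokine Ccl9 (15.3 to 1.73 CPM, log2 ratio -3.09). Other examples were chosen after their values were seen. Lcp1, the leukocyte plastin, went from 55.9 to 5.91 CPM, and Itgb2, the shared β chain of leukocyte integrins, from 9.09 to 0.844 CPM. The signalling genes Rac2, Vav1 and Dock2 had log2 ratios of -3.51, -3.50 and -3.43, and the receptor genes Tlr13, Tlr7 and Tlr2 -3.17, -2.83 and -1.38.

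The extent of these genes was traced with libraries outside the pair. A gene was termed P6-high when it was at least 4-fold higher in the P6 than in the P1 α-amyrin library. There were 132 such expressed genes, of which 83, or 62.9%, were among the 100 lower genes, against 0.864% of all expressed genes. Only 21 of the 100 lower genes reached 5 CPM with β-amyrin, so the rest passed the minimum through the vehicle library alone. All 26 expressed macrophage markers were P6-high, and 57 further lower genes were. In the 63 genes that were at least 8-fold higher at P6, the median log2 ratio of β-amyrin over vehicle at P1 was -3.01 and 59 were lower. In the 69 genes between 4-fold and 8-fold the median was -0.77 and 24 were lower. In the 422 genes between 2-fold and 4-fold it was -0.16 with 7 lower, and in the 4877 genes up to 2-fold higher at P6 it was -0.02 with 3 lower. Across the 132 P6-high genes, Spearman's rho between both ratios was -0.66, a description over genes that share libraries and are not independent.

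P6-high genes did not all share the deficit, since 49 of the 132 were not called. Cdkn2a, the locus of p16 and p19Arf, had 19.4 CPM in P1 vehicle and 17.4 in P1 β-amyrin against 115 in P6 vehicle, and its P1 log2 ratio was -0.16. Stmn2, a neuronal stathmin, had 4.53 and 5.23 CPM at P1 against 72.6 in P6 vehicle, a P1 log2 ratio of 0.20. Spp1, osteopontin, had 472 and 354 CPM at P1, a log2 ratio of -0.42. In all, 7 of the 132 had a ratio above 0.

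**Figure D3:**
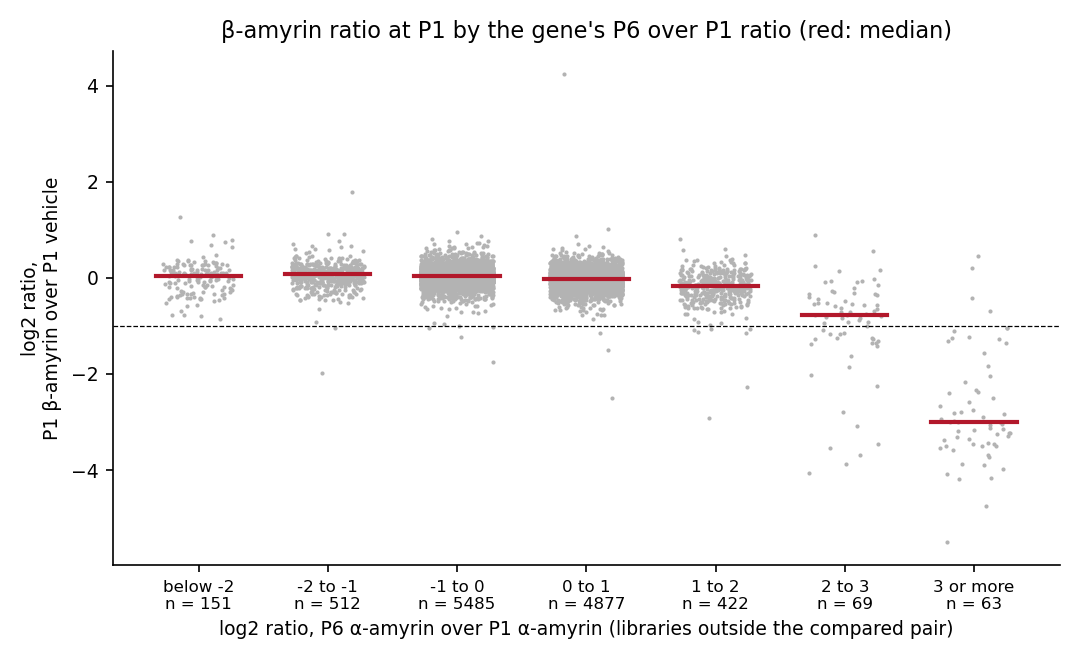
Log2 ratio of P1 β-amyrin over P1 vehicle (vertical axis) for expressed genes in 7 bins of the P6 over P1 log2 ratio between the α-amyrin libraries (horizontal axis), 1 grey point per gene with the bin median in red. Medians stay between -0.16 and 0.07 in the first 5 bins and reach -0.77 and -3.01 in the last 2.

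At P6 the same markers were abundant and differed less between β-amyrin and vehicle. The summed macrophage level was 7314 CPM in P6 vehicle, 7551 in P6 α-amyrin and 5447 in P6 β-amyrin, 1.34-fold lower with β-amyrin than with vehicle. The sum in P6 vehicle was 12.6-fold that in P1 vehicle. Of the 26 markers, 19 were lower and 7 higher with β-amyrin at P6, with a median log2 ratio of -0.53, and 2 were at least 2-fold lower. These were Cx3cr1 (199 to 81.0 CPM, log2 ratio -1.30) and Csf1r (573 to 240 CPM, log2 ratio -1.25). Plek moved the other way, from 78.5 to 174 CPM, a log2 ratio of 1.15, and Cd68 stood at 115 and 155 CPM. The P6 pair shares no library with the P1 pair. Over the 100 genes that were lower at P1, 82 had a ratio below 0 at P6, against 45.7% of all expressed genes, with a median of -0.36. Only 6 of them were at least 2-fold lower at P6, where 0.646% of 11925 expressed genes were, and 1 was at least 2-fold higher, where 0.226% were. The difference in response between passages was not tested.

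PU.1 sites were counted in the promoters as a description. RefSeq promoters were matched for 70 of the 100 lower genes, and 9 of the 70, or 12.9%, held GAGGAAGT on either strand. The 9 were C1qc, Cd53, Ctss, Cyth4, Fmnl1, Hpgds, Inpp5d, Pld4 and Vav1. The share was 3.45% of the 8765 expressed genes with a promoter and 3.20% of all 32851 promoters. It was also 11.1% in the unrelated cholesterol list, where 2 of 18 genes with a promoter held it. The SRE letters occurred in 1 of those 18 genes, Hmgcs1, and in 1.40% of expressed genes with a promoter. They occurred in 1.24% of all promoters. A gene was counted when any of its promoters held the site, whereas the shares of all promoters count each promoter singly. Neither motif contains the other.

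Away from macrophage markers and P6-high genes, 17 genes were lower, 0.149% of the 11447 expressed genes outside both sets. Cd36, the scavenger receptor and fatty acid transporter (chromosome 5, 17781690 to 17888801), was the largest of the 17 among annotated protein-coding genes. It had 26.8 CPM in P1 vehicle, 29.3 in P1 α-amyrin and 5.47 in P1 β-amyrin, a log2 ratio of -2.28 with a counting interval of -2.57 to -2.03. At P6 it stood at 97.9, 86.0 and 127 CPM in the same order, so β-amyrin was lowest of 3 at P1 and highest of 3 at P6. Rab3il1, a Rab exchange factor, was at -1.08, Arhgef6, a Rac and Cdc42 exchange factor, at -1.07, and the amino acid transporter Slc16a10 at -1.06. All 4 were more than 2-fold higher at P6 than at P1 in α-amyrin, below the limit set for P6-high genes, so their part in the macrophage pattern was not tested.

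Parp14, described with the interferon genes, was also among the 17. The other 12 listings are uncertain because near-identical copies or overlapping genes can share their reads, and 5 of these 12 are predicted genes or pseudogenes without a role to name. Gapdh was listed at only 46.4 and 21.3 CPM and Sumo2 at 50.1 and 12.7 CPM, and both have many processed pseudogenes. The mitochondrial genes mt-Atp6, mt-Co3 and mt-Co2 were listed at 13.1 to 58.7 CPM in the pair, with log2 ratios of -1.5, -1.14 and -1.01, and have nuclear copies. Gapdh had 12.1 CPM in P1 α-amyrin, below its β-amyrin value, and so did not mark the β-amyrin library. The same held for the pseudogenes Gm10705, Gm10145 and Gm5425, named after their values were seen. Their P1 levels in vehicle, α-amyrin and β-amyrin were 19.1, 1.46 and 2.45 CPM for Gm10705 and 6.98, 0.951 and 1.17 CPM for Gm10145. Those of Gm5425 were 13.1, 3.50 and 3.82 CPM. Mt2 overlaps the antisense RNA Gm45774, named after its values were seen and listed at nearly the same CPM (35.9 and 35.3 in P1 vehicle, 17.5 and 17.1 in P1 β-amyrin). The use of strand in counting is not stated.

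Both metallothioneins, small proteins that bind zinc and copper, were lower. Mt2 had 35.9 CPM in vehicle, 38.7 in α-amyrin and 17.5 in β-amyrin at P1, a log2 ratio of -1.03. Mt1 had 66.1, 73.9 and 36.4 CPM in the same order, a log2 ratio of -0.86. At P6 the levels were 40.9, 38.2 and 23.5 CPM for Mt2 and 80.3, 74.4 and 51.8 CPM for Mt1. The β-amyrin library was thus lowest of 3 at each passage for both genes. The rest of the list of 10 expressed metallothionein and zinc transport genes showed no such deficit, with a list median of 0.00 and zinc exporter Slc30a1 at 21.3 and 22.4 CPM.

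Mt2 was also one of the genes nearest to the 2-fold line. The members just inside it were Gm27177 (-1.03), Mt2 (-1.03) and mt-Co2 (-1.01), and those just outside were Lpl (-0.997), Stard8 (-0.98) and Gm7331 (-0.96). Lpl, the lipoprotein lipase of fat cells and macrophages, stood at 67.2 CPM in P1 vehicle, 96.2 in P1 α-amyrin and 33.6 in P1 β-amyrin.

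Genes of cholesterol synthesis and uptake were all slightly lower. Of 27 listed SREBP2 targets and regulators, 26 were expressed, and all 26 had a ratio below 0, against 47.2% of expressed genes. Their median log2 ratio was -0.35. None reached 2-fold, and 3 reached 1.5-fold, where 1.6% of expressed genes were lower. Among the 3 were the farnesyl diphosphate synthase Fdps (286 to 169 reads, log2 ratio -0.68) and the sterol reductase Tm7sf2 (20.4 to 12.9 CPM, -0.66). The β-amyrin library was the lowest of the 3 at P1 for 25 of the 26, a position it held for 29.3% of all expressed genes.

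The pathway was lower along its length. Hmgcs1, whose promoter is printed above, had 593 CPM in P1 vehicle, 536 in P1 α-amyrin and 480 in P1 β-amyrin, a log2 ratio of -0.30 with a counting interval of -0.34 to -0.27. Sqle, the squalene epoxidase, had 296, 241 and 230 CPM, a log2 ratio of -0.36. Cyp51, the lanosterol demethylase, had 494, 412 and 387 CPM, a log2 ratio of -0.35, and Lss, the lanosterol synthase, had 224, 187 and 161 CPM, a log2 ratio of -0.47. These 4 genes showed 1 order, vehicle highest and β-amyrin lowest. Cyp51 and Lss, and below Srebf2, Scap and Idi1, were picked after their values were seen. Insig1, which retains the SREBP complex, was at -0.39, Srebf2 itself at -0.25 and Scap at -0.04, the smallest value of the list. The list median for P1 α-amyrin over vehicle was -0.15, a comparison that shares the vehicle library.

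At P6 the same genes differed more, with a median log2 ratio of -1.16 for β-amyrin over vehicle. Of the 26, 25 were below 0 at P6, against 45.7% of all genes expressed in the P1 pair. At least 2-fold lower were 17 of the 26, against 0.646% of the 11925 genes expressed at P6. Hmgcs1 went from 221 to 90.8 CPM there, a log2 ratio of -1.28, and Idi1, the isopentenyl diphosphate isomerase, from 43.2 to 14.2 CPM, -1.59, against -0.27 at P1. The levels at P1 were the higher ones, with a summed CPM of 5129 in P1 vehicle and 4114 in P1 β-amyrin against 2269 and 1112 at P6. The difference between the passages was not tested.

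**Figure D4:**
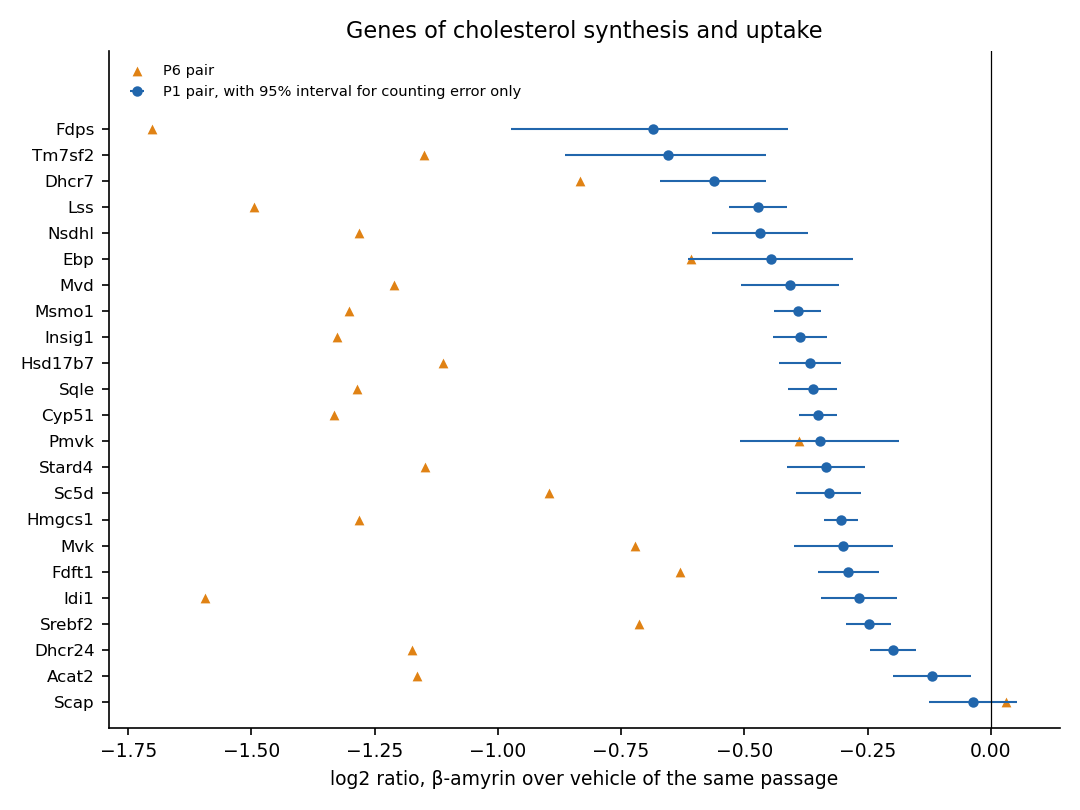
Log2 ratio of β-amyrin over vehicle (horizontal axis) for 23 expressed genes of cholesterol synthesis and uptake, with blue circles and 95% counting intervals for P1 and orange triangles for P6. The P1 values run from -0.68 for Fdps to -0.04 for Scap, and most P6 values lie farther below 0.

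LXR target genes also had lower levels, 13 of 13 below 0 with a median of -0.30, where 47.2% of expressed genes were below 0. Apoe, the carrier of cellular cholesterol, had 56.2 CPM in vehicle, 43.6 in α-amyrin and 21.95 in β-amyrin, a log2 ratio of -1.35, and was P6-high. The cholesterol exporter Abca1, also P6-high, had 57.5, 30.2 and 30.4 CPM, a log2 ratio of -0.92, with both amyrin libraries alike. Scd2 and Scd1, the stearoyl-CoA desaturases, were at -0.52 and -0.49 (2856 to 1995 CPM and 452 to 322 CPM). They too had near-equal values in both amyrin libraries, at 1955 and 345 CPM in α-amyrin. Of 14 fatty acid synthesis genes 13 were below 0, with a median of -0.11. Without P6-high genes, 10 LXR targets remained and 10 of 10 were below 0, with a median of -0.23. The summed macrophage level beside these values was 579.8 CPM in vehicle and 72.5 CPM in β-amyrin, and its part in them was not tested.

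Most lysosomal genes were slightly lower. Of 55 lysosome and autophagy genes, all expressed and none P6-high, 49 were below 0, against 47.2% of all expressed genes. The median log2 ratio of the list was -0.22, with a range of -0.75 to 0.15. Ctsc, the cathepsin that activates serine proteases, went from 64.1 to 38.1 CPM (-0.75), and Ctsb, cathepsin B, from 649 to 436 CPM (-0.57). The α-galactosidase Gla was at -0.57 and progranulin, Grn, at -0.49 (299 to 212 CPM). In α-amyrin their P6 over P1 log2 ratios were 1.98 for Ctsb, just under the P6-high limit, 1.67 for Ctsc, 1.23 for Grn and 0.81 for Gla. At P6 the median of the list was 0.05, with 36 of 55 above 0, where 54.3% of all genes were. These genes are used by fibroblasts and macrophages alike, and the part of the macrophage deficit in their P1 values was not tested.

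Immune genes that are not confined to macrophages were lower as well. Of 25 expressed interferon-stimulated genes 22 were below 0, with a median of -0.27, and 5 were at least 1.5-fold lower, against 47.2% and 1.6% of all expressed genes. Parp14, an ADP-ribosyltransferase, had 7.02 CPM in vehicle, 8.46 in α-amyrin and 3.14 in β-amyrin, a log2 ratio of -1.14, and it was also lower at P6 (38.2 to 18.7 CPM, -1.03). Isg15, the ubiquitin-like modifier, had 6.83, 10.2 and 3.58 CPM, a log2 ratio of -0.92. Lgals3bp was at -0.78 and the antiviral tether Bst2 at -0.77. The P1 α-amyrin library lay on the other side of vehicle, with a list median of 0.24. At P6 the list median for β-amyrin over vehicle was -0.09, with Lgals3bp at -0.31 but Isg15 at 0.13 and Bst2 at 0.17. MHC genes had a P1 median of -0.28 with 9 of 10 below 0, and a P6 median of -0.02. They were led at P1 by H2-T23 (6.87 to 3.54 CPM, -0.94), which was P6-high, and H2-K1 (38.9 to 25.4 CPM, -0.61). The 8 MHC genes outside the P6-high genes and the macrophage list had a P1 median of -0.18, with 7 below 0. Macrophages also express many of these genes, and their part was not tested.

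Complement and lipid-handling lists held some of the 2-fold deficits, which 0.864% of expressed genes showed. The median of 12 expressed complement genes was -1.18, with 6 at least 2-fold lower, and it was -0.85 with FPKM and -0.33 at a minimum of 1 CPM. The 4 complement genes outside the P6-high genes and the macrophage list had a median of 0.02. Genes of lipid-laden phagocytes had a median of -0.42, with 4 of 17 at least 2-fold lower, and a P6 median of 0.19. The 12 of them outside had a median of -0.20 with 10 below 0. PPAR targets had a median of -0.13, with Cd36 and Ucp2 (18.9 to 9.17 CPM, -1.04) at least 2-fold lower. The 14 outside had a median of -0.11 with 11 below 0. Senescent cells secrete a set of cytokines and proteases known as the SASP, and of its 41 expressed genes 2 were at least 2-fold lower. These were Ccl9 and the chemokine Cxcl16 (-1.57), both P6-high, and the list median was 0.04. Hmox1, heme oxygenase, was at -0.38 among NRF2 targets with a median of -0.06.

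Markers of the other cell types of the embryo showed no comparable deficit. The 22 fibroblast markers had a median of 0.07 with 5 below 0, and the 6 endothelial markers 0.07. The 11 mesothelial markers had a median of 0.08, with Wt1, a mesothelial transcription factor, at 13.4 and 16.5 CPM. Medians were 0.19 for 4 epithelial, 0.03 for 7 cartilage and bone, -0.06 for 4 neural and -0.15 for 5 muscle markers. Of the other blood cell lists, only Gata2 (0.35) among neutrophil and mast cell markers and Zbtb46 (0.04) among lymphoid and dendritic markers reached the minimum, and no erythroid marker did. Over the listed cell types, the macrophage list alone held a gene at least 2-fold lower.

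**Figure D5:**
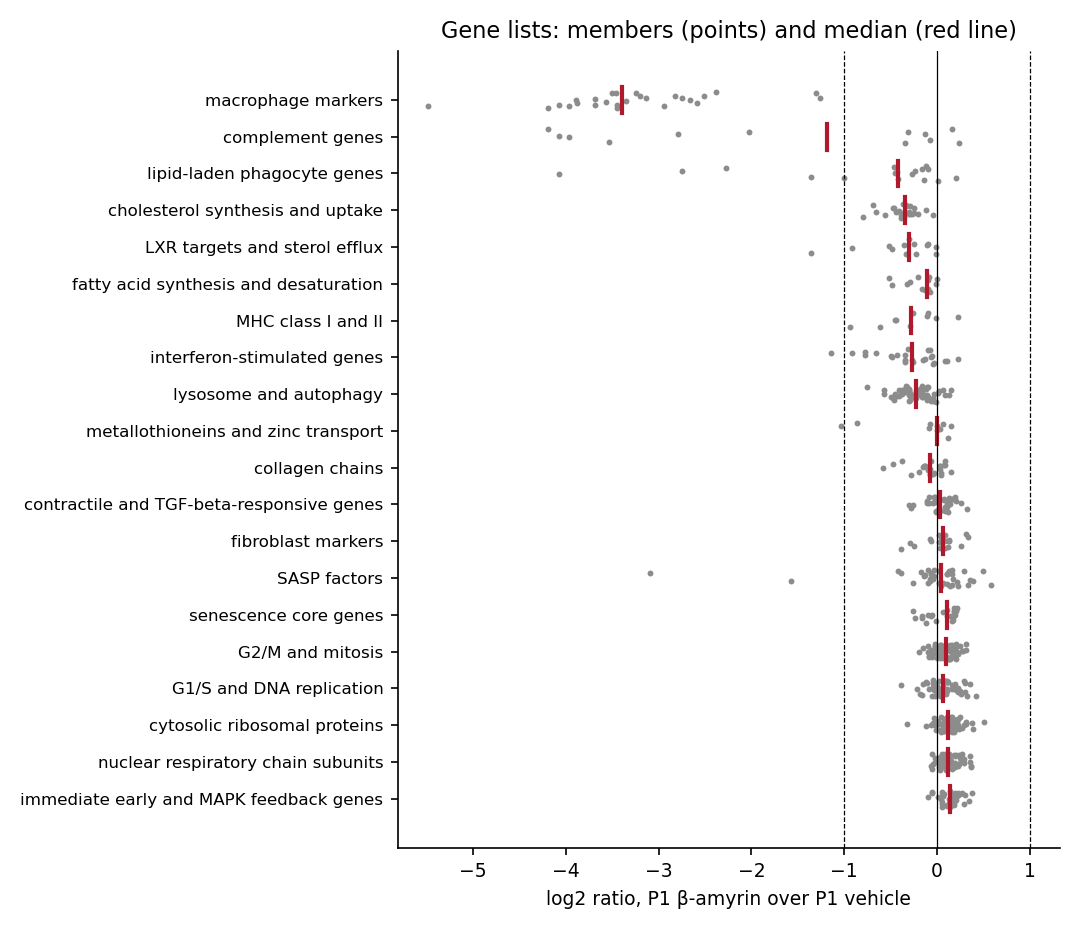
Log2 ratio of P1 β-amyrin over P1 vehicle (horizontal axis, dashed lines at 2-fold) for members of 20 gene lists, 1 grey point per expressed member and a red line at the list median. The macrophage median is -3.40, the cholesterol, LXR, MHC, interferon and lysosome medians lie between -0.35 and -0.22, and the lists from metallothioneins downward lie between -0.07 and 0.14.

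On the higher side the single large change was in an antisense RNA. Uchl1os (chromosome 5, 66626495 to 66676498, minus strand, mm10) overlaps the start of Uchl1, the neuronal ubiquitin hydrolase. It had 12 reads in P1 vehicle and 252 in P1 β-amyrin, or 0.460 and 10.1 CPM, with 0.204 CPM in P1 α-amyrin. The log2 ratio was 4.24 with a counting interval of 3.63 to 5.43. At P6 its levels were 0.339 CPM in vehicle, 0.212 in α-amyrin and 5.85 in β-amyrin, a log2 ratio of 3.82. Both β-amyrin libraries were therefore above all 4 others. Uchl1 itself, added after its values were seen, stood at 50.7 CPM in P1 vehicle and 48.8 in P1 β-amyrin, a log2 ratio of -0.06. Reads in the stretch where both genes overlap could not be assigned without knowing whether counting used strand.

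The other 3 higher genes were also not protein-coding. Gm44126, a processed pseudogene, had 2.88 CPM in vehicle, 7.68 in α-amyrin and 10.1 in β-amyrin, a log2 ratio of 1.79. Gm10241, a pseudogene within Yeats2, was at 1.03 (8.55, 12.8 and 17.5 CPM). Gm26771, antisense to the WNT inhibitor gene Sfrp2, was at 1.27 (2.38, 8.05 and 5.83 CPM). Its deposited FPKM barely differed, at 0.229, 0.281 and 0.287 in the same order, a log2 ratio of 0.07, so this call is uncertain. Sfrp2 itself had 18.99, 44.7 and 32.4 CPM, a log2 ratio of 0.77, so that both genes of this overlapping pair were lowest in vehicle. Pseudogene counts depend on how reads shared with the parent gene were assigned, which the sources do not describe.

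No protein-coding gene reached 2-fold higher, and the largest ratios outside the P6-high genes were just under it. They were those of Gabra4, a GABA receptor subunit (3.26 to 6.23 CPM, log2 ratio 0.92), Fam166a (0.91), the angiopoietin-like Angptl7 (6.14 to 11.4 CPM, 0.88) and the transcription factor Atoh8 (6.87 to 12.7 CPM, 0.88). Further down came Eif3j2 (0.87), Rps27rt (0.80), the apelin ligand Apln (11.9 to 20.7 CPM, 0.79) and the oxidase Nox1 (0.76). For Angptl7 and Fam166a the α-amyrin library was higher still, at 15.1 and 12.7 CPM, so the vehicle library was the low one of the 3. Eif3j2 and Rps27rt are close copies of other genes, and their counts are uncertain.

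Immediate early genes were mostly just above 0. Of 39 expressed immediate early and MAPK feedback genes 36 were above 0, against 52.8% of all genes, with a median of 0.14 and none at 1.5-fold. Egr1, an immediate early transcription factor, had 122 CPM in vehicle, 124 in α-amyrin and 151 in β-amyrin, a log2 ratio of 0.31, and the mRNA decay factor Zfp36 was at 0.38. The β-amyrin library was the highest of 3 for 29 of the 39, a position it held for 34.7% of all expressed genes. Ribosomal protein genes, whose counts share reads with pseudogenes, were above 0 in 66 of 75, with a median of 0.11. The β-amyrin library was the highest of 3 for 47 of the 75. Nuclear respiratory chain genes were above 0 in 54 of 60, with a median of 0.12, genes of mitosis in 55 of 73, with a median of 0.10, and replication genes in 34 of 55, with a median of 0.06. In these last lists the β-amyrin library was the highest of 3 for 21 of 60, 25 of 73 and 19 of 55 members, near the share over all genes. Their medians for P1 α-amyrin over the same vehicle library were 0.17, 0.11 and 0.12.

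Markers of senescence and of the fibroblast's matrix differed little. Cdkn1a, the p21 cell cycle inhibitor, had 533 CPM in vehicle and 558 in β-amyrin, a log2 ratio of 0.07. Lmnb1, the nuclear lamin whose level falls in senescence, had 90.7 and 104 CPM, a log2 ratio of 0.20, and the proliferation marker Mki67 had 170 and 165 CPM, -0.04. Col1a1 was at -0.08 and smooth muscle actin, Acta2, at 0.03. Il6 and Cxcl1, cytokines of the SASP, were under 5 CPM in both libraries, with 28 and 19 reads for Il6 and 52 and 39 for Cxcl1. The chemokine Ccl2 stood at 60.8 and 58.9 CPM, -0.05.

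The other fixed lists had medians between -0.07 and 0.11. They were 0.11 for core senescence genes, 0.06 for p53 targets, -0.05 for NF-kB genes, 0.03 for unfolded protein response chaperones, -0.05 for the integrated stress response and 0.08 for heat shock genes. Medians were -0.04 for AHR targets, -0.01 for glycolysis and hypoxia genes, -0.05 for mitochondrially encoded genes and -0.07 for collagen chains. They were -0.02 for other matrix proteins, 0.03 for contractile genes, 0.03 for matrix proteases and inhibitors, 0.08 for imprinted and fetal growth genes and 0.03 for WNT, Notch and hedgehog genes. In these 15 lists the 2-fold deficits were those of Gapdh and the 3 mitochondrial listings named above.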

How the data were processed

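Poly(A) RNA was made into libraries with a directional kit, per the labels' protocols. Build mm10 and featureCounts 1.6.3, SAMtools 1.9, HISAT2 2.1.0, Trimmomatic 0.38 and FastQC 0.11.7 are named, without settings, per the submitters' processing notes. The authors deposited whole-number counts per gene. They also deposited FPKM values, made in a way not given in the sources used here. Counts were scaled by TMM (edgeR 4.0.16, R 4.3.3) to CPM, and the log2 ratio used a prior count of 2. Genes with at least 5 CPM in 1 library of the pair entered, and calls were made at 2-fold. Intervals are exact at 95% and cover counting error only, since reads are not independent molecules. The procedure was tested on a simulated pair of libraries with counting error only and changes placed in genes well above the CPM minimum. That simulation held no variation between cultures, so it cannot tell how reliable calls from 1 library a side are. Members, the 43 gene lists (11 of cell type markers) and the tests were chosen with earlier results of these data known. Named genes were every gene called higher, the 15 largest deficits, the 10 largest rises and deficits outside the macrophage list and P6-high genes (predicted genes skipped), up to 4 genes per list, and 18 fixed genes, of which a few are not reported here. Gene positions were those deposited with the counts. GENCODE M21 held 99.5% of the deposited identifiers, and 99.2% of these had the same position there. Alternatives were DESeq2 1.42.0 size factors, total counts, other prior counts, minimums and folds, the deposited FPKM with a pseudocount of 1, the P1 α-amyrin library in place of vehicle and protein-coding genes alone.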

Additional observations from a re-analysis of the deposited data

Results flagged for a closer look

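Plek, a pleckstrin of platelets and leukocytes, was lower with β-amyrin at P1, with a log2 ratio of -1.26 (15.3 CPM in vehicle and 6.35 in β-amyrin), and higher at P6, with a log2 ratio of 1.15 (78.5 and 174 CPM). It stands out because the difference was at least 2-fold in opposite directions at the 2 passages. The difference was not tested, and each value comes from 1 library a side. The α-amyrin libraries lay near vehicle, at 15.3 CPM at P1 and 92.9 CPM at P6.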

How the results depend on the processing

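The counts of higher, lower and lower genes outside the macrophage list and P6-high genes were 4, 100 and 17. They were 4, 100 and 17 with DESeq2 size factors and with prior counts of 0.5 and 5, and 4, 101 and 17 with total counts. Lowering the CPM minimum to 1 gave 52, 307 and 85, no minimum gave 734, 1321 and 980, and a minimum of 10 gave 3, 51 and 13. A fold of 1.5 gave 50, 185 and 83, and a fold of 3 gave 2, 66 and 5. The deposited FPKM gave 66, 151 and 83, of which 1 higher and 62 lower genes were shared with the main calls. Outside genes numbered 37 with P6-high set at 8-fold and 74 with the macrophage list alone removed. In alternatives chosen after seeing the data, the P1 α-amyrin library in place of vehicle gave 4, 124 and 39, sharing 1 higher and 86 lower genes. Protein-coding genes alone gave 0, 95 and 12. Of 242 named ratios, 57 moved with FPKM, 56 of them towards 0. Of the 104 called genes, 1 changed sign with FPKM, the predicted gene Gm10767, from -1.24 to 0.04. The neutrophil and mast cell median, 0.35 from 1 gene, was -0.11 at a minimum of 1 CPM, where more members entered. The macrophage median was -2.08 with FPKM and -3.25 at 1 CPM, the interferon median -0.47 at 1 CPM, and the complement median -0.85 and -0.33. The causes were not tested. No paired analysis was possible because each condition has 1 library. Leaving out a replicate was likewise not applicable. Low-level genes limit precision, since under 30 reads in a library leave wide counting intervals.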

Other observations

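Annotation terms in the authors' deposited table, read after the calls were known, describe the 100 lower genes further. Innate immune response was attached to 17 of the 100 and to 1.51% of expressed genes, inflammatory response to 14 and 0.976%, and immune system process to 11 and 0.898%. Phagocytosis was attached to 6 and 0.345%, and engulfment to 6 and 0.13%. These are shares of annotated names with no test.

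Mitochondrially encoded genes were lower with β-amyrin at P6 as a list. Of 11 expressed members, 6 were below 0 at P1, with a median of -0.05, against 47.2% of all expressed genes. At P6 11 of 11 were below 0, with a median of -0.23, against 45.7% of all genes expressed in the P1 pair. The members include mt-Atp6, mt-Co3 and mt-Co2, whose listings are called uncertain above. Mitochondrially encoded genes took 1.81% of counts in P6 vehicle and 1.55% in P6 β-amyrin, the lowest share of the 6 libraries. mt-Nd6 had 475 CPM in P1 vehicle and 569 in P1 β-amyrin, and 671 and 570 CPM at P6. Integrated stress response genes also differed, with a median of -0.05 at P1 and 0.20 at P6. Trib3, a stress-induced pseudokinase, had 45.5 and 36.8 CPM at P1 and 4.44 and 15.4 CPM at P6. In α-amyrin Trib3 had 29.5 CPM at P1 and 12.6 CPM at P6. At P6 both amyrin libraries thus lay above vehicle, and the rise did not mark the β-amyrin library. The differences between the passages were not tested.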
